A study of Caenorhabditis elegans with 6 samples.

Results

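The F-box A, B and C genes (fbxa, fbxb and fbxc) are worm gene families whose proteins carry an F-box. The members described here are the rows of the deposited count table with a symbol of 1 of these families and at least 60 reads summed over the 6 libraries. There were 301 such genes among the 46936 in the table, of which 149 were fbxa, 107 fbxb and 45 fbxc. They were thus chosen by the summed raw counts of both groups, so that their being expressed is no result. The families have 391 symbols in the table, and 90 fell below the rule, 11 of them with 0 reads in all 6 libraries. The members nearest the limit were fbxa-86 and fbxa-99 with 61 reads each and fbxa-138 with 63, and the nearest genes outside it were fbxa-16 with 59 and fbxa-7 and fbxc-3 with 58 each.

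The samples were whole animals of the N2 wild-type strain, fed *E. coli* OP50 and kept at 20 °C. The 3 MProPow2 replicates were raised from hatched larvae on plates with MProPow2, a protein powder that holds milk fat globule membrane (Protein powder 2 in the labels), and the 3 control replicates were raised on plates with water instead. Both groups were moved to 5-fluorouracil plates at the L4 stage, which prevents progeny, and were frozen as adults of day 2. Libraries were made from poly-A RNA, and their depth was 29347851 to 32145772 counts per MProPow2 library and 28859395 to 37501098 per control library. The replicates are described as biological. RNA came from whole animals, so a change in the number of cells of a tissue and a change of RNA per cell cannot be told apart.

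An F-box protein is the part of a ubiquitin ligase that chooses the target. Its F-box binds a Skp1-related adaptor (the skr genes in the worm), which binds a cullin scaffold, and a RING protein such as RBX-1 brings the enzyme that hands over ubiquitin, so that the bound protein is marked for the proteasome. *C. elegans* has an unusually large number of F-box genes, most of them in families that multiplied within nematodes and often lie side by side on the chromosome. In fbxa proteins the F-box is followed by an FTH domain, as in FOG-2, which is needed for sperm production in hermaphrodites, and in fbxb proteins by an F-box associated domain. The targets of nearly all of these proteins are unknown. The fbxa proteins FBXA-75 and FBXA-158 work with the cullin CUL-6 and the adaptors SKR-3, SKR-4 and SKR-5 in the intracellular pathogen response of the worm.

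Most members were of low abundance. FPKM, the deposited level scaled for gene length and library size, had a median over the members' means of 2.33 for fbxa, 3.14 for fbxb and 3.77 for fbxc. Of the 301 members, 59 had a mean under 1 FPKM and 41 had 10 FPKM or more, 21 of them fbxa, 6 fbxb and 14 fbxc. The most abundant member per length was fbxa-215, with 194, 170 and 229 FPKM in MProPow2 libraries 1, 2 and 3, against 215, 198 and 203 FPKM in control libraries 1, 2 and 3. It stood far above every other member in all 6 libraries, and the groups overlapped. The next was fbxc-51, with 63.1, 66.2 and 34.4 FPKM in MProPow2 libraries 1, 2 and 3, against 44.9, 59.1 and 71.6 FPKM in control libraries 1, 2 and 3. MProPow2 library 3 held the lowest level of fbxc-51 and control library 3 the highest. Next in order came fbxc-44, fbxa-101, fbxa-210, fbxa-206, fbxa-60, fbxb-66, fbxa-192 and fbxc-40, with means over the 6 libraries of 51, 50.4, 49.1, 33.1, 31.9, 29.3, 24.9 and 23.3 FPKM. Each of these overlapped in its single-library values with the gene before it, except fbxa-206, which lay below fbxa-210 in every library. None of these 10 genes was called between the groups by edgeR at an adjusted p under 0.05, and fbxa-60 and fbxa-192 were those with groups that did not overlap, both lower in MProPow2.

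The comparison asked which members differ between MProPow2 and control animals. The counts were scaled to CPM, counts relative to library size, with TMM factors, which keep a few very abundant genes from setting the scale, and tested with edgeR's quasi-likelihood test on all 14534 genes that passed its filter on low counts, and a gene was called at a Benjamini-Hochberg adjusted p under 0.05 over all of them. Log2 fold changes are of MProPow2 over control, so that positive values stand for genes higher in MProPow2. Of the 301 members, 298 were tested, and fbxa-86, fbxa-164 and fbxa-174 fell below the filter. Among the tested members 3 (fbxb-76, fbxb-29 and fbxa-30) passed the filter through 1 group only, so that a difference was built into their passing.

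At the adjusted threshold 6 members were higher and 2 were lower in MProPow2 animals than in control animals. Of these 8, fbxb-76 and fbxa-30 passed the filter on low counts only through the group where they were higher. Over all genes tested, 1.53% were called higher and 1.47% lower, so the share of members called, 2.68%, lay near the 3.01% of all genes. With upper-quartile scaling in place of TMM, 229 genes were higher and 131 lower, where TMM gave 223 and 214 (2.48% of all genes called in place of 3.01%), and among members 5 were higher and 1 lower. The higher members were 5 fbxb genes (fbxb-13, fbxb-76, fbxb-6, fbxb-115 and fbxb-1) and 1 fbxc gene (fbxc-18), and both lower members were fbxa genes (fbxa-30 and fbxa-156). No role of any of these 8 proteins beyond the F-box is given here. None of the 8 overlaps an exon of another gene in the Ensembl annotation, but near-identical copies may share reads in these families.

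The member of smallest p was fbxb-13 (identifier 182411), with 8.53, 9.99 and 8.71 CPM in MProPow2 libraries 1, 2 and 3, against 4.98, 4.91 and 5.36 CPM in control libraries 1, 2 and 3. All 3 MProPow2 libraries stood well above all 3 control libraries, with little spread in either group (log2 fold change 0.84, standard error 0.14, adjusted p = 0.018, edgeR). The gene with the largest rise of the 6 was fbxb-76 (identifier 186669), with 1.06, 0.666 and 1.53 CPM in MProPow2 libraries 1, 2 and 3, against 0.244, 0.133 and 0.222 CPM in control libraries 1, 2 and 3. The groups did not overlap (log2 fold change 2.45, standard error 0.42, adjusted p = 0.020, edgeR), but the values rest on 20 to 46 reads per MProPow2 library and 5 to 7 per control library. For fbxb-6 (identifier 184141) the values were 3.07, 3.56 and 4.94 CPM in MProPow2 libraries 1, 2 and 3, against 1.25, 1.6 and 1.84 CPM in control libraries 1, 2 and 3. MProPow2 library 3 was the highest for both fbxb-76 and fbxb-6, and for fbxb-6 every MProPow2 library lay above every control library (log2 fold change 1.29, standard error 0.24, adjusted p = 0.024, edgeR).

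Among these genes fbxb-115 (identifier 188947) and fbxb-1 (identifier 188946) lie close together on chromosome V. The values of fbxb-115 were 8.87, 10.2 and 8.91 CPM in MProPow2 libraries 1, 2 and 3, against 3.1, 5.23 and 5.4 CPM in control libraries 1, 2 and 3. Those of fbxb-1 were 10.6, 11.8 and 10.6 CPM in MProPow2 libraries 1, 2 and 3, against 3.03, 5.71 and 6.76 CPM in control libraries 1, 2 and 3. In both genes control library 1 was the lowest and the MProPow2 libraries were close to each other. The log2 fold change was 1.02 for fbxb-115 (standard error 0.21, edgeR, adjusted p = 0.033). For fbxb-1 it was 1.08 (standard error 0.25, edgeR, adjusted p = 0.049). The other members of that run of 4 are fbxb-116 and fbxb-2. They were not called, with log2 fold changes of 0.43 and 0.58 (edgeR, adjusted p = 0.261 and 0.222). Both were picked for naming once their values had been seen. The fbxc gene called was fbxc-18 (identifier 183117), with 22.9, 24.3 and 17.5 CPM in MProPow2 libraries 1, 2 and 3, against 9.78, 12.7 and 13.1 CPM in control libraries 1, 2 and 3. MProPow2 library 3 was the lowest treated library of fbxc-18 and control library 1 its lowest control, and the groups did not overlap (log2 fold change 0.86, standard error 0.16, adjusted p = 0.027, edgeR).

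The lower members moved the other way. In fbxa-156 (identifier 180171) the values were 5.24, 4.63 and 2.87 CPM in MProPow2 libraries 1, 2 and 3, against 8.94, 7.25 and 9.05 CPM in control libraries 1, 2 and 3. The lowest was MProPow2 library 3, and the groups did not overlap (log2 fold change -0.98, standard error 0.22, adjusted p = 0.046, edgeR). In fbxa-30 (identifier 191058) they were 0.186, 0.133 and 0.10 CPM in MProPow2 libraries 1, 2 and 3, against 0.557, 0.48 and 0.571 CPM in control libraries 1, 2 and 3. Every MProPow2 library lay below every control library (log2 fold change -1.89, standard error 0.39, adjusted p = 0.036, edgeR), on 3 to 6 reads per MProPow2 library and 16 to 18 per control library.

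**Figure D1:**
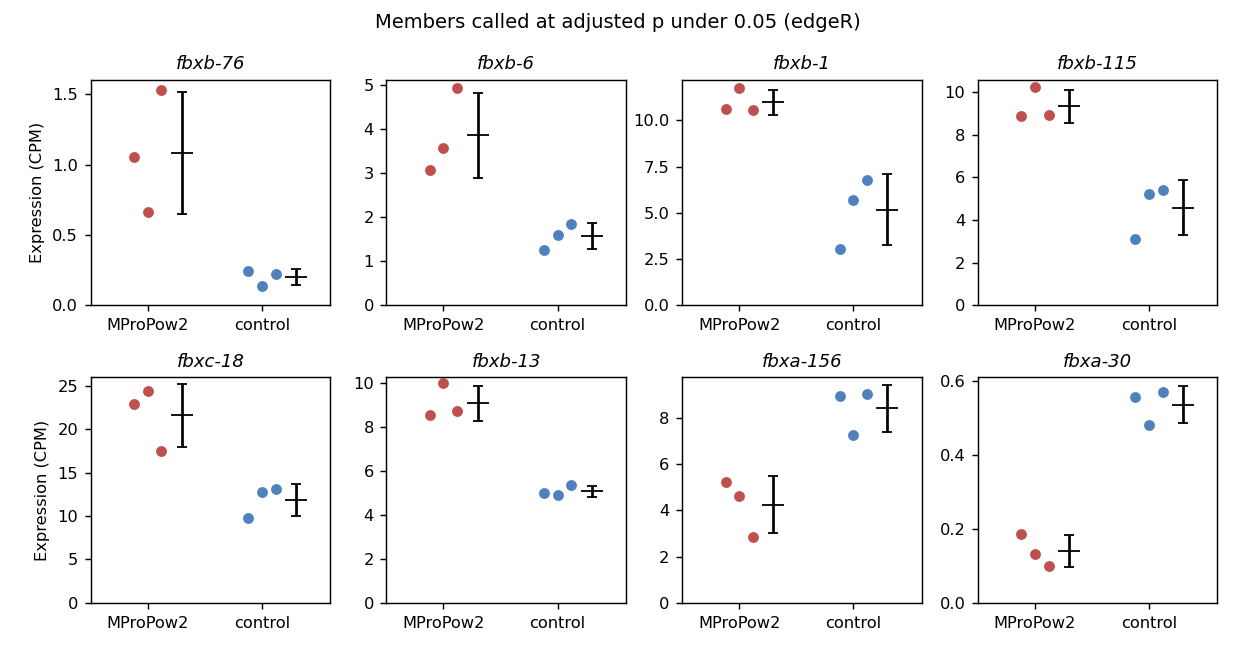
Expression of the 8 members called at an adjusted p under 0.05 (edgeR), in CPM on axes that start at 0. Points are libraries, MProPow2 in red and control in blue, and black bars give the mean and SD of 3 libraries. In each gene the groups do not overlap, with 6 genes higher and 2 lower in MProPow2. Of these, fbxb-76 and fbxa-30 passed the filter on low counts through 1 group only.

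These calls changed with the libraries in the fit, and a fit on fewer libraries has fewer values to test. When 1 library was left out, the number of members called was 1 without MProPow2 replicate 1, 4 without MProPow2 replicate 2, 25 without MProPow2 replicate 3 and 1 without control replicate 1. It was 0 without control replicate 2 and 0 without control replicate 3 in edgeR, where 44 and 56 members had an unadjusted p under 0.05 (no other tool was run on these sets). The share of all genes called in those fits, in the same order, was 0.787%, 2.64%, 7.02%, 1.02%, 0.481% and 0.663%. The adjusted p of edgeR ran over these 6 fits from 0.0019 to 0.095 for fbxb-13, from 0.0087 to 0.097 for fbxb-76, from 0.0074 to 0.10 for fbxb-6 and from 0.00028 to 0.109 for fbxc-18. It ran from 0.0033 to 0.099 for fbxb-115, from 0.0057 to 0.144 for fbxb-1, from 0.0082 to 0.157 for fbxa-156 and from 0.053 to 0.129 for fbxa-30, and fbxa-30 was called in none of the 6. Each of the 8 genes kept its direction in all 6 fits. The log2 fold change ran from 0.76 to 0.89 for fbxb-13, 2.12 to 2.70 for fbxb-76 and 1.07 to 1.43 for fbxb-6. It ran from 0.73 to 0.99 for fbxc-18, 0.81 to 1.16 for fbxb-115 and 0.81 to 1.33 for fbxb-1. For fbxa-156 it ran from -1.17 to -0.77 and for fbxa-30 from -2.16 to -1.71. DESeq2 called 15 members higher and 1 lower, where 2.66% of all genes were called higher and 2.45% lower, and these 16 included 7 of the 8 genes above. Without the filter on low counts edgeR called 28 members (4.61% of all genes), with RLE size factors 8 (3.32%) and with at least 10 counts in every library 4 (2.42%). With limma on log2(FPKM + 0.1) it was 1 member (0.711%). With limma on log2(FPKM + 1) it was 0 members with a filter on low FPKM (0.466%) and 0 without it (0.169%), while 47 and 40 had an unadjusted p under 0.05.

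The gene with the largest fold change among the members, fbxa-163 (identifier 182398), was not called, and 1 library decided its value. It was measured at 2.02, 2.43 and 19.2 CPM in MProPow2 libraries 1, 2 and 3, against 0.522, 0.72 and 0.762 CPM in control libraries 1, 2 and 3. All 3 MProPow2 libraries lay above the controls, but MProPow2 library 3 held 575 reads against 65 and 73 in the other two. The log2 fold change was 3.54 (standard error 0.85, edgeR, adjusted p = 0.058). Without MProPow2 replicate 3 it was 1.72, and the gene was called (edgeR, adjusted p = 0.0012), as it was without MProPow2 replicate 2 and by DESeq2. Of its neighbours on chromosome II, fbxa-162 was also highest in MProPow2 library 3 but by less, and fbxa-165 was not, with 1.12, 1.33 and 2.7 CPM in MProPow2 and 1.81, 1.09 and 2.0 CPM in control for fbxa-162, and 0.993, 0.899 and 0.467 CPM in MProPow2 and 0.557, 0.533 and 0.413 CPM in control for fbxa-165, both named after their values were seen.

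Groups that do not overlap were also seen in members that were not called. They include fbxb-10, with 7.63, 7.23 and 7.47 CPM in MProPow2 and 4.56, 4.72 and 5.46 CPM in control (log2 fold change 0.60, standard error 0.14, adjusted p = 0.057, edgeR). They include fbxb-62, with 4.31, 5.7 and 5.44 CPM in MProPow2 and 2.64, 2.85 and 3.59 CPM in control (log2 fold change 0.76, standard error 0.19, adjusted p = 0.062, edgeR). In fbxb-29 the values were 0.838, 0.666 and 0.40 CPM in MProPow2 and 0.209, 0.24 and 0.222 CPM in control, on 12 to 27 reads per MProPow2 library and 6 to 9 per control library. The gene fbxb-29 passed the filter on low counts through MProPow2 only, so that a difference was built into its being tested (adjusted p = 0.082, edgeR). DESeq2 called fbxb-10 and fbxb-62. The fbxa gene fbxa-163, described above, was also higher in MProPow2 with groups that did not overlap, and was not called by edgeR. Of the 298 members tested, 57 (19.1%) were higher and 21 (7.05%) lower in MProPow2 with groups that did not overlap, against 11.1% and 12.3% of all genes. On the lower side the 10 of smallest p were the 2 called and 8 further fbxa genes. In order of p these 8 were fbxa-21, fbxa-60, fbxa-85, fbxa-59, fbxa-95, fbxa-31, fbxa-121 and fbxa-53, with log2 fold changes between -0.84 and -0.35 and adjusted p from 0.080 to 0.291 (edgeR). The most abundant of these per length, fbxa-60, averaged 34.5 ± 6.29 CPM in MProPow2 and 44.9 ± 1.48 CPM in control (SD, n = 3 each), and its neighbour fbxa-59 averaged 11.3 ± 1.44 CPM in MProPow2 and 14.4 ± 0.593 CPM in control (SD, n = 3 each).

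Most fbxb and fbxc members had positive log2 fold changes, and fbxa members lay on both sides of 0. The median log2 fold change was 0.24 over the 107 fbxb members tested and 0.23 over the 45 fbxc members tested. It was 0.01 over the 146 fbxa members tested and -0.01 over all genes tested. Of the fbxb members 82 (76.6%) had a positive log2 fold change, as did 35 of the fbxc members (77.8%) and 76 of the fbxa members (52.1%), against 47.1% of all genes. The lowest log2 fold change of an fbxb member was -0.49 and that of an fbxc member -0.23, while fbxa members ran from -1.89 to 3.54. Members called numbered 5 higher and 0 lower in fbxb, 1 higher and 0 lower in fbxc, and 0 higher and 2 lower in fbxa. These are 4.67% of fbxb, 2.22% of fbxc and 1.37% of fbxa members, where 1.53% of all genes were called higher and 1.47% lower. The fbxb and fbxa shares include fbxb-76 and fbxa-30, which passed the filter on low counts only through the group where they were higher. A difference was thus built into their passing. At an unadjusted p under 0.05 (edgeR), 27 fbxb members were higher and 0 lower, 7 fbxc members were higher and 0 lower, and 13 fbxa members were higher and 10 lower, where 9.13% of all genes were higher and 7.75% lower. DESeq2 called 12 fbxb members higher and 0 lower, 1 fbxc member higher and 0 lower, and 2 fbxa members higher and 1 lower, where 2.66% of all genes were higher and 2.45% lower. The share called by DESeq2 was 11.2% in fbxb, 2.22% in fbxc and 2.05% in fbxa.

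**Figure D2:**
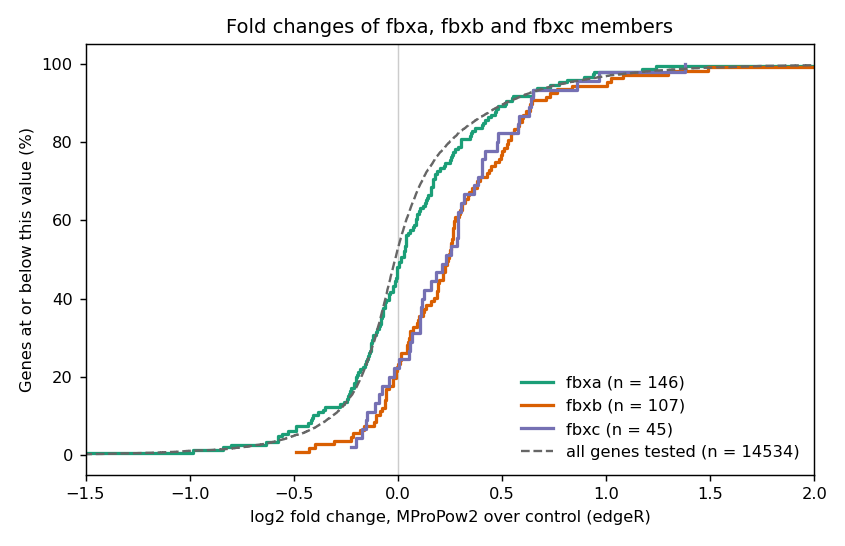
Cumulative share of genes, in percent, at or below each log2 fold change (MProPow2 over control, edgeR) for fbxa (n = 146), fbxb (n = 107) and fbxc (n = 45) members and, dashed, for all 14534 genes tested. The fbxb and fbxc lines lie right of the dashed line around their medians of 0.24 and 0.23, and the fbxa line lies close to it; fbxa-30, fbxa-163 and fbxb-76 lie beyond the axis.

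Members whose groups do not overlap were counted by family as well. Of the fbxb members, 25 (23.4%) had all 3 MProPow2 libraries above all 3 control libraries and 1 (0.935%) had all 3 below. Of the fbxc members these were 10 (22.2%) and 1 (2.22%), and of the fbxa members 22 (15.1%) and 19 (13%). The fbxb and fbxc genes below were fbxb-97 and fbxc-32, named after their values were seen, with log2 fold changes of -0.49 and -0.23. Over all genes tested, 11.1% were above and 12.3% below. For a single gene, 3 libraries against 3 allow a two-sided exact permutation p of no less than 0.1. Members share their libraries, so these counts describe the families in these 6 libraries, and no test of a family as a whole was run.

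Low abundance moved with the direction of change over the whole table. Over all genes tested, the median log2 fold change was 0.26 below 1 CPM, 0.11 from 1 to 3 CPM, 0.02 from 3 to 10 CPM, -0.04 from 10 to 30 CPM and -0.05 at 30 CPM or more. The fbxb members lay above these values in the bands that held most of them or their most abundant genes. Their median was 0.26 for the 53 genes from 3 to 10 CPM and 0.36 for the 10 genes from 10 to 30 CPM, and all 10 in that band had a positive value. The 34 fbxb members from 1 to 3 CPM had a median of 0.09, which is below that of all genes in this band. For fbxc the medians were 0.30 from 1 to 3 CPM (10 genes), 0.15 from 3 to 10 CPM (12 genes) and 0.16 from 10 to 30 CPM (11 genes). The 3 fbxc members at 30 CPM or more had a median of -0.08, with 1 of the 3 positive. For fbxa the medians were 0.15 from 1 to 3 CPM, -0.0029 from 3 to 10 CPM and -0.10 from 10 to 30 CPM (44, 50 and 19 genes). At 30 CPM or more the fbxa median was -0.12 (6 genes). Below 1 CPM the medians were 0.07 for fbxa (27 genes), 0.31 for fbxb (9 genes) and 0.29 for fbxc (9 genes), against 0.26 over all genes. The part of abundance in the families' values was not tested.

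**Figure D3:**
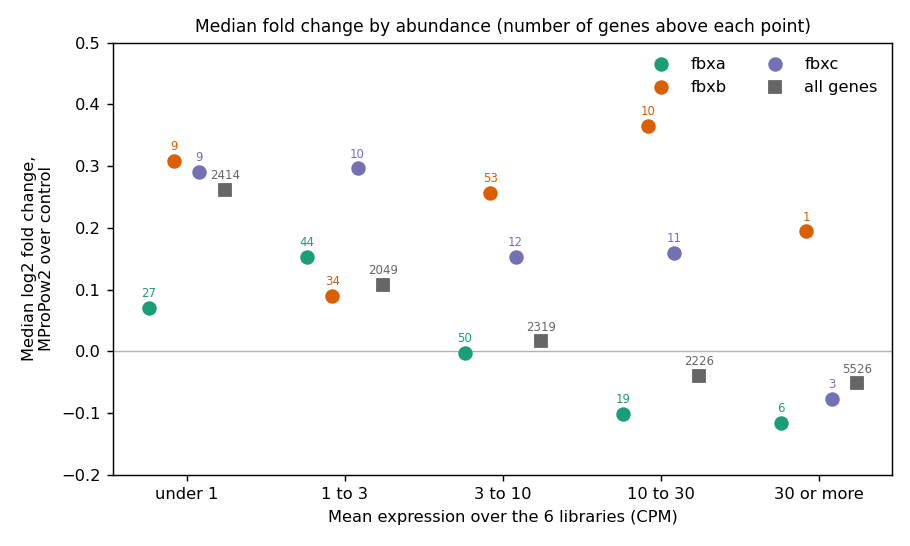
Median log2 fold change (MProPow2 over control) of fbxa, fbxb and fbxc members (circles) and of all genes tested (squares), by mean expression over the 6 libraries in CPM, with the number of genes above each point. All genes fall from 0.26 below 1 CPM to -0.05 at 30 CPM or more, while fbxb members stand at 0.26 from 3 to 10 CPM and 0.36 from 10 to 30 CPM.

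The summed fbxb and fbxc levels had the same lowest and the same highest library. The summed expression of the 107 fbxb members was 544, 603 and 488 CPM in MProPow2 libraries 1, 2 and 3, against 356, 464 and 505 CPM in control libraries 1, 2 and 3. The highest fbxb sum was in MProPow2 library 2 and the lowest in control library 1, and the groups overlapped, since control library 3 lay above MProPow2 library 3. The sum of the 45 fbxc members was 513, 551 and 427 CPM in MProPow2 libraries 1, 2 and 3, against 406, 473 and 516 CPM in control libraries 1, 2 and 3. It had its highest value in MProPow2 library 2 and its lowest in control library 1 as well. The 149 fbxa members summed to 1100, 1118 and 1239 CPM in MProPow2 libraries 1, 2 and 3, against 1166, 1153 and 1218 CPM in control libraries 1, 2 and 3, with no separation of the groups. Without fbxa-215, which held from 236 to 311 CPM, the fbxa sums ran from 839 to 928 CPM in MProPow2 and from 873 to 940 CPM in control. All 301 members together took 0.210% to 0.232% of the counts of MProPow2 libraries and 0.192% to 0.224% of those of control libraries.

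Control library 1 was the lowest of the 6 in 71 of the 107 tested fbxb members (66.4%), in 24 of the 45 fbxc members (53.3%) and in 41 of the 146 fbxa members (28.1%), and in 17.9% of all genes tested. MProPow2 library 2 was the highest in 44 fbxb members (41.1%) and in 25 fbxc members (55.6%), against 24.4% of all genes. The median log2 distance of control library 1 from the mean of the other control libraries was -0.38 over fbxb, -0.33 over fbxc, -0.09 over fbxa and 0.01 over all genes (log2 of CPM + 0.1). For MProPow2 library 3 against the other MProPow2 libraries it was -0.10, -0.20, 0.05 and -0.01 in the same order. Without control replicate 1, the 1 member called was fbxb-76, which passed the filter of the fit on all 6 libraries through MProPow2 only. In the fit without control replicate 1 the median log2 fold change was 0.12 for fbxb and 0.08 for fbxc, with 68 of 107 and 28 of 45 positive. Without MProPow2 replicate 3 it was 0.26 for fbxb and 0.31 for fbxc, with 18 fbxb members called higher and 0 lower and 2 fbxc members higher and 0 lower by edgeR (16.8% and 4.44%, where 7.02% of all genes were called). Without both libraries, a fit added after the data were seen, the medians were 0.19 and 0.17, with 18 fbxb and 3 fbxc members called higher where 7.74% of all genes were called.

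**Figure D4:**
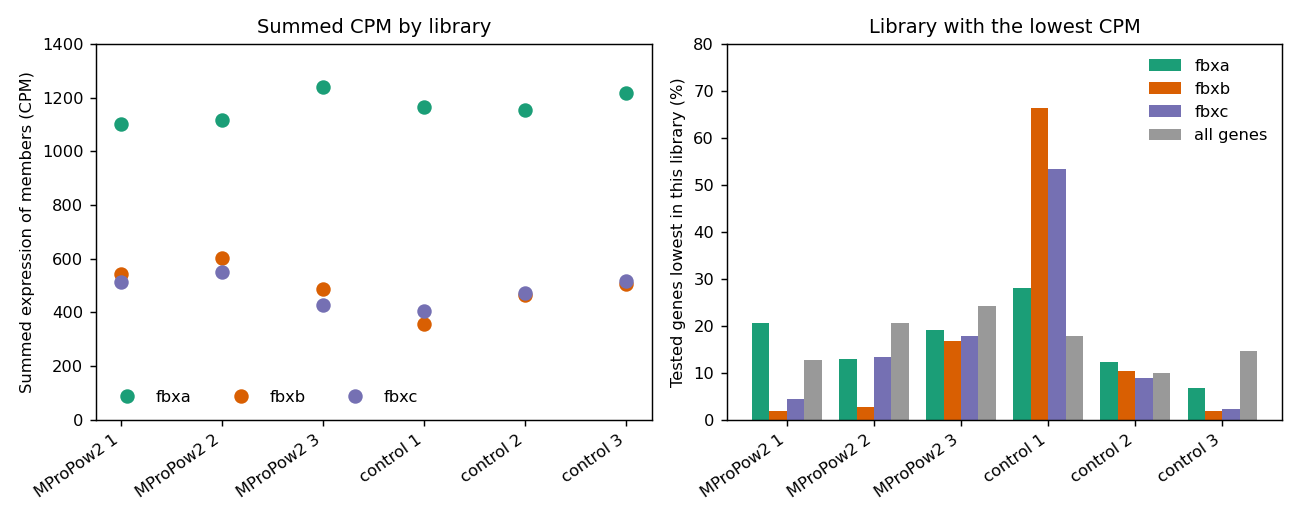
Left, summed expression in CPM of the fbxa (n = 149), fbxb (n = 107) and fbxc (n = 45) members in each library. Right, the percentage of tested fbxa, fbxb and fbxc members and of all genes tested for which each library had the lowest CPM of the 6: control library 1 is the lowest for 66.4% of fbxb members, against 17.9% of all genes.

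Markers of tissues were read in the same libraries. The summed CPM of 6 oocyte markers (among them rme-2, the yolk receptor) was 3603, 3205 and 4605 CPM in MProPow2 libraries 1, 2 and 3 and 4488, 4034 and 3313 CPM in control libraries 1, 2 and 3. The sum of 8 germline markers was 1839, 1629 and 2315 CPM in MProPow2 libraries 1, 2 and 3 and 2156, 1941 and 1770 CPM in control libraries 1, 2 and 3. Both sums were highest in MProPow2 library 3 and control library 1, the libraries of each group with the lowest fbxb and fbxc sums. The 7 intestinal markers summed to 930, 1119 and 878 CPM in MProPow2 libraries 1, 2 and 3. In control libraries 1, 2 and 3 they summed to 1164, 1185 and 1194 CPM. The intestinal sum was lowest in MProPow2 library 3 and control library 1, as the fbxb and fbxc sums were. The 7 neuronal markers summed to 72.8 to 87.6 CPM in MProPow2 and 89.8 to 104 CPM in control. The 6 body wall muscle markers summed to 686 to 773 CPM in MProPow2 and 894 to 981 CPM in control. Like the oocyte and germline sums, the muscle sum was highest in MProPow2 library 3 and control library 1. The 12 early embryo markers summed to 23.5 to 24.8 CPM in MProPow2 and 22.1 to 28.3 CPM in control, and 6 sperm markers to 15.7 to 19 CPM in MProPow2 and 15 to 16.2 CPM in control. The early embryo sum was also lowest in MProPow2 library 3 and control library 1. No marker was at 0 reads in all libraries. Only lev-11 and unc-27 of muscle were called, both lower in MProPow2 (edgeR), and they are named with their values known. The part of these tissues in the values of the F-box genes was not tested.

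The members lie unevenly over the chromosomes, by the RefSeq gene table of assembly WBcel235, in which all 301 were found under the same symbol (the build of the count table is not given in the sources used here). Of the fbxc members 36 of 45 lie on chromosome II, as do 59 of the 107 fbxb members, while 50 fbxa members lie on chromosome III and 58 on chromosome V. The median log2 fold change of fbxb members was above 0 on each chromosome, with 0.17 for the 59 on II, 0.30 for the 16 on V and 0.55 for the 11 on IV. For fbxa it was 0.04 for the 50 tested on III and -0.01 for the 57 tested on V. RefSeq annotates 47 members as pseudogenes, 34 of them fbxa, and none of these was called by edgeR after the filter on low counts (without it fbxa-21 was called), with 3 higher (fbxa-187, fbxa-97 and fbxc-6, named with their values in view) and 2 lower (fbxa-21 and fbxa-121) at an unadjusted p under 0.05. These are 6.38% and 4.26% of the pseudogenes, against 9.13% and 7.75% of all genes.

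Most members have another as a neighbour. In gene order, 220 of the 301 lay within a run in which members were separated by at most 2 other genes, and there were 59 such runs, 7 of them with 6 or more members. The largest, on chromosome III, held 18 fbxa genes. Its first 5, fbxa-151 to fbxa-30, had negative log2 fold changes, from -1.89 to -0.26, and the next 11, fbxa-33 to fbxa-19, had positive values from 0.10 to 0.81. Of this run only fbxa-30 was called, and the other members did not pass the test. A run of 16 on chromosome II, with 15 fbxc genes, had 14 positive values and a median of 0.29. It summed to 137, 149 and 109 CPM in MProPow2 libraries 1, 2 and 3, against 103, 124 and 128 CPM in control libraries 1, 2 and 3. The run of 7 fbxc genes that starts with fbxc-18 had 7 positive values between 0.07 and 0.86, of which only that of fbxc-18 was called. The sum of these 7 genes was 96.3, 111 and 70.7 CPM in MProPow2 libraries 1, 2 and 3, against 57.9, 79.6 and 82.8 CPM in control libraries 1, 2 and 3. In both of these chromosome II runs control library 1 was the lowest library, and MProPow2 library 3 the lowest of its group and below control libraries 2 and 3. Another chromosome II run, of 9 from fbxb-17 to fbxb-47 with 6 fbxb and 3 fbxc genes, differed. It had 7 positive values, a median of 0.50 and 0 members called. Its sums were 32.1, 33.6 and 35.6 CPM in MProPow2 libraries 1, 2 and 3. In control libraries 1, 2 and 3 they were 22.2, 28.7 and 29.8 CPM, each below every MProPow2 library. In the run of 9 around fbxa-59 and fbxa-60 on chromosome III the sums were 73.6, 87.2 and 88.2 CPM in MProPow2 libraries 1, 2 and 3, against 92.3, 92.6 and 98.9 CPM in control libraries 1, 2 and 3, and here every MProPow2 library lay below every control library. Of its members 5 had positive and 4 negative log2 fold changes, with a median of 0.03, and fbxa-60 and fbxa-59, described above, had the lowest values.

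**Figure D5:**
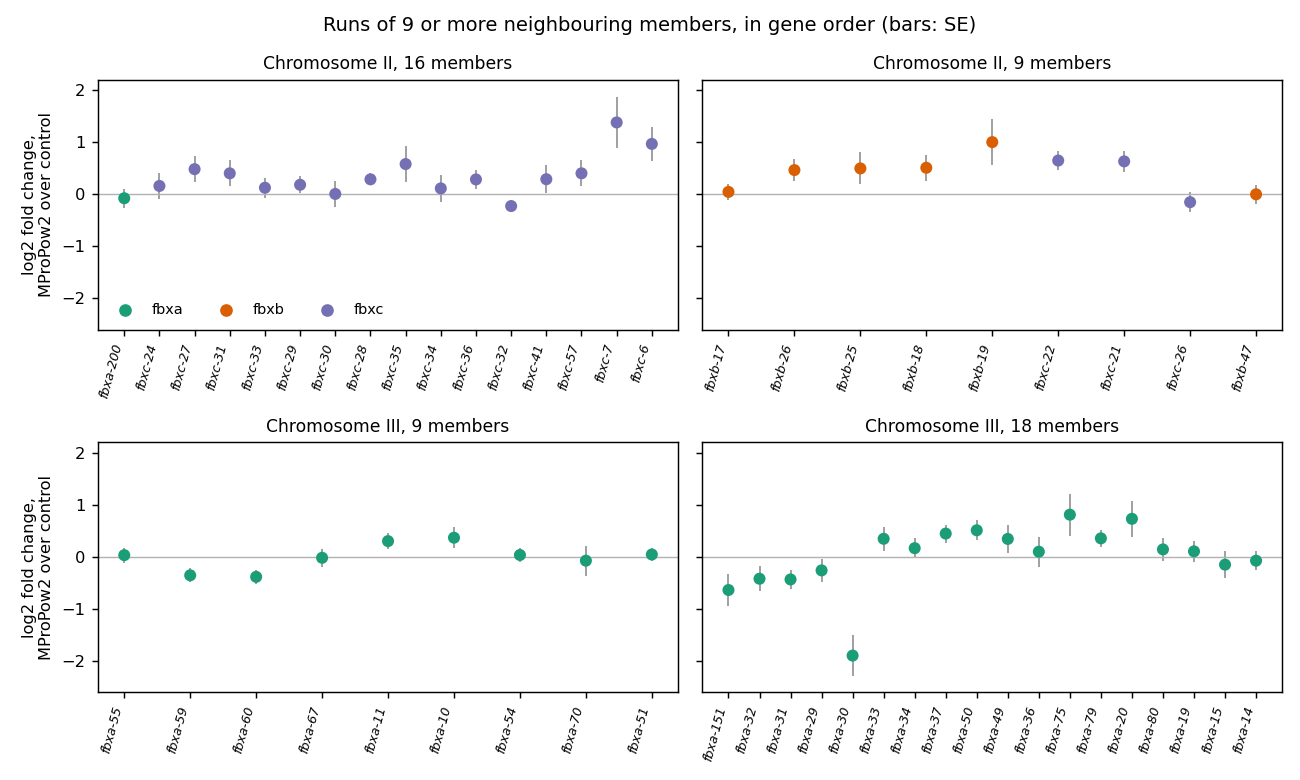
Log2 fold change (MProPow2 over control, edgeR) of the members in the 4 runs of 9 or more neighbouring members, in gene order, with bars for the standard error and colours for the family. Values run from -1.89 in fbxa-30 to 1.38 in fbxc-7; the first 5 genes of the run of 18 lie below 0 and the next 11 above.

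A partner list was then read, with skr adaptors, cullins, RING proteins, ubiquitin enzymes and the enzymes that attach or remove NEDD8 from cullins. Besides cul-1 and cul-6 it holds cul-2, cul-3, cul-4 and cul-5, so its counts are not those of F-box partners alone. Of the 44 genes on this list 43 were tested, with 20 positive and 23 negative log2 fold changes. Their median was -0.02 (0.04 with upper-quartile scaling, where that of all genes was 0.05). By edgeR 0 were called, where 3.01% of all genes were, and DESeq2 called 0, where 5.11% of all genes were. At an unadjusted p under 0.05 (edgeR), 1 was higher (skr-7) and 4 lower (skr-3, skr-4, csn-6 and ubc-12). These are 2.33% and 9.3% of the genes tested on the list, against 9.13% and 7.75% of all genes. The core adaptor skr-1 was at 225, 232 and 211 CPM in MProPow2 and 234, 235 and 231 CPM in control, and the core cullin cul-1 at 161, 146 and 162 CPM in MProPow2 and 160, 157 and 161 CPM in control. Levels of both were close in all 6 libraries, with log2 fold changes of -0.07 and -0.02 (edgeR, adjusted p = 0.762 and 0.927). Of 11 F-box genes outside these families 2 had positive and 9 negative log2 fold changes, with a median of -0.10. By edgeR 0 of them were called, with 1 lower (9.09%, against 7.75% of all genes) at an unadjusted p under 0.05, dre-1, which DESeq2 called. These genes of low p were named with their values in view. Among them fog-2 was at 39.9, 32.6 and 41.3 CPM in MProPow2 and 43.2, 42.9 and 44.4 CPM in control (log2 fold change -0.20, standard error 0.11, adjusted p = 0.40, edgeR). A list of MATH and BTB genes (symbols math, bath and btb) had 90 members tested, 40 with positive and 50 with negative values. Their median was -0.03 (0.04 with upper-quartile scaling). The share called by edgeR was 1.11%, where 3.01% of all genes were called. Only math-4 was called, lower in MProPow2 at 11.2, 11.6 and 10.8 CPM in MProPow2 and 15.7, 16 and 15.7 CPM in control (log2 fold change -0.50, standard error 0.11, adjusted p = 0.048, edgeR), with adjusted p from 0.027 to 0.182 when single libraries were left out and a call only without MProPow2 replicate 3.

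The fbxa members with a known ligase partner did not pass the test. Levels of fbxa-75 (identifier 191032) were 4.13, 7.03 and 1.83 CPM in MProPow2 libraries 1, 2 and 3, against 1.84, 2.45 and 3.08 CPM in control libraries 1, 2 and 3. MProPow2 libraries 1 and 2 lay above all controls, and MProPow2 library 3 below them all (log2 fold change 0.81, standard error 0.40, adjusted p = 0.351, edgeR). Without MProPow2 replicate 3 the log2 fold change of fbxa-75 was 1.17, and it was called (edgeR, adjusted p = 0.0063). Levels of fbxa-158 (identifier 182402) were 3.41, 3.8 and 2.94 CPM in MProPow2 libraries 1, 2 and 3, against 1.6, 2.56 and 2.73 CPM in control libraries 1, 2 and 3. All 3 MProPow2 libraries lay above the controls (log2 fold change 0.55, standard error 0.23, adjusted p = 0.254, edgeR), and no fit without 1 library called it. Their cullin cul-6 was at 7.94, 9.19 and 10.4 CPM in MProPow2 and 7.34, 8.43 and 7.65 CPM in control (log2 fold change 0.23, standard error 0.15, adjusted p = 0.489, edgeR). The adaptor skr-3 was at 32.5, 38.5 and 42.9 CPM in MProPow2 and 47.2, 49.6 and 53 CPM in control, and skr-4 at 21, 26 and 24.4 CPM in MProPow2 and 32.2, 28.4 and 31.2 CPM in control. Both adaptors had groups that did not overlap, lower in MProPow2, and neither was called (log2 fold change -0.40, standard error 0.11, adjusted p = 0.109 for skr-3 and log2 fold change -0.36, standard error 0.11, adjusted p = 0.141 for skr-4, edgeR), while skr-5 overlapped at 2.42, 3.23 and 1.4 CPM in MProPow2 and 1.88, 1.73 and 2.22 CPM in control. Without MProPow2 replicate 3 skr-3 was called (edgeR, adjusted p = 0.010).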

How the data were processed

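RNA-seq of 6 whole-animal libraries (3 MProPow2, 3 control) was read from the deposited tables. The authors mapped reads with HISAT2 and counted them with featureCounts, and deposited raw counts per gene. They also deposited FPKM values, which scale those counts by gene length and library size. For the genome build, the annotation and the strand option of featureCounts, the sources used here give no entry. Without a known strand setting, 19 members that overlap an exon on the opposite strand, and 14 on the same strand, by the Ensembl annotation (251 of 301 members matched by symbol), may hold reads of another gene.

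Counts were filtered with edgeR's filterByExpr (minimum 10), scaled with TMM factors and tested with its quasi-likelihood test between MProPow2 and control in R (R 4.3.3, edgeR 4.0.16). Of 46936 genes, 14534 were tested, with Benjamini-Hochberg adjustment over all of them and a threshold of 0.05. The common biological coefficient of variation was 13.9%. The fit was also run on simulated counts with the same dispersion in every gene and no library set apart from its group. That run cannot show how the fit behaves where single libraries stand apart, as they do here. Alternatives were DESeq2 (1.42.0), limma (3.58.1) on log2(FPKM + 0.1) or log2(FPKM + 1), other scalings and filters, a replicate block, and leaving out each library.

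Members named in the text were those called, up to 10 members a direction, by smallest p, among those with groups that do not overlap, the 10 of highest mean FPKM, fbxa-75 and fbxa-158, and the 3 nearest the count limit on each side. Of the other lists, called genes and the named partners were given. The members and lists were chosen with earlier results of these data known.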

Additional observations from a re-analysis of the deposited data

How the results depend on the processing

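With all 6 libraries the family medians and the single genes followed across all settings kept their sign. The medians of the partner and MATH/BTB lists lay near 0 and were positive under some settings. So was the median of all genes, at 0.053 with upper-quartile scaling and 0.060 without the filter on low counts, against -0.01. With upper-quartile scaling 61.2% of all genes and 91 of 146 fbxa members had positive log2 fold changes, against 47.1% and 76, so single members near 0 changed sign. The number of calls moved most. Without the filter on low counts edgeR called 23 members higher and 5 lower (684 and 542 of all genes), with 1 partner gene, 1 other F-box gene, 5 MATH/BTB genes and 14 pathogen response genes called. DESeq2 called 15 members higher and 1 lower (386 and 356 of all genes), with 1 other F-box gene, 3 MATH/BTB genes and 6 pathogen response genes. With limma on log2(FPKM + 0.1), 1 member was higher and 0 lower (66 and 82 of all genes). With limma on log2(FPKM + 1) these were 0 and 0 (37 and 60), and without a filter 0 and 0 (12 and 33), while 47 and 40 members had an unadjusted p under 0.05. All 3 limma fits called 0 MATH/BTB and 0 pathogen response genes. With RLE size factors 2 genes of each of these lists were called. With upper-quartile scaling 0 of each were called, 1 member was lower, 131 of all genes were lower, and the fbxa median was 0.079. A minimum of 10 counts in every library left 0 members lower and 0 MATH/BTB genes called, and a summed count of at least 600 left 1 member lower. Without control replicate 1 and MProPow2 replicate 3 together, 24 members were higher (699 and 442 of all genes higher and lower).

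With the replicate number as a block, 2 members were higher and 0 lower (90 and 102 of all genes), and 0 MATH/BTB and 0 pathogen response genes were called. The deviations of same-numbered libraries correlated at -0.05, 0.10 and -0.12, so the numbers were not taken as pairs. When 1 library was left out, members called ranged from 0 to 23 higher and from 0 to 2 lower, and all genes from 17 to 627 higher and from 55 to 417 lower. Calls ranged from 0 to 5 for MATH/BTB genes, 0 to 2 for partners, 0 to 22 for pathogen response genes and 0 to 1 for other F-box genes. The median log2 fold change ranged from 0.04 to 0.20 over members, from -0.01 to 0.06 for fbxa, from 0.12 to 0.31 for fbxb and from 0.08 to 0.31 for fbxc. The cause of these shifts was not tested. The fold changes of the named genes were counted once per gene and alternative setting, so these are not numbers of genes. Of these pairs, 293 kept their direction and side of the threshold, 91 lost a call and 25 gained one. Among the called members, the call was lost in from 6 of 16 alternatives (fbxb-6) to 12 of 15 (fbxa-30). The smallest change that could have been called was not measured.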

Other observations

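Genes of the intracellular pathogen response, a programme that worms start on infection by microsporidia or the Orsay virus and that holds the cul-6 ligase, were read as 1 list with the pals genes, eol-1, rcs-1 and the ligase genes, fbxa-75 and fbxa-158 among them. The pals genes, 39 of the 50 on the list, were taken by symbol and not by their response to infection. Of 50 genes 42 were tested, and 34 had positive and 8 negative log2 fold changes, with a median of 0.50 against -0.01 over all genes. The median of all genes was 0.26 below 1 CPM and 0.11 from 1 to 3 CPM, and the list was not split by abundance. At an unadjusted p under 0.05 (edgeR), 10 were higher and 3 lower (23.8% and 7.14%, against 9.13% and 7.75% of all genes). By edgeR 0 were called higher and 1 lower (2.38%), where 3.01% of all genes were called. The lower gene was rcs-1, a RING protein gene of this ligase, at 10.5, 12.7 and 11.1 CPM in MProPow2 and 18.8, 16.4 and 17.5 CPM in control (log2 fold change -0.62, standard error 0.13, adjusted p = 0.033, edgeR). Its adjusted p ran from 0.011 to 0.138 when single libraries were left out, and it was called in 2 of those 6 fits, those without MProPow2 replicate 2 or 3. The marker gene of the response, pals-5, was at 2.85, 3.63 and 1.53 CPM in MProPow2 and 1.32, 1.73 and 1.11 CPM in control (log2 fold change 0.94, standard error 0.32, adjusted p = 0.167, edgeR). MProPow2 libraries 1 and 2 stood above all controls for pals-5, and MProPow2 library 3 within their range.

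Without MProPow2 replicate 3, 20 of 43 tested genes of this list were called higher and 2 lower (51.2%, where 7.02% of all genes were called), and the median was 0.79. The genes called lower were rcs-1 and skr-3. Without MProPow2 replicate 2 the median was 0.21, with 0 called higher and 1 lower by edgeR. Without MProPow2 replicate 1, or without control replicate 1, 2 or 3, edgeR called 0 genes of the list. In those fits the median ran from 0.35 to 0.59, and 0.481% to 1.02% of all genes were called. For pals-5, as for fbxa-75, MProPow2 library 3 was the lowest treated library. The cause was not tested.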
